A study of Homo sapiens with 36 samples.

Results

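DNAH1, DNAH17, MYH3, NEB, CCDC168 and COL7A1 are 6 genes with long transcripts, most of them known from cilia, muscle or skin, whose RNA was higher in UM-SCC-1 cells carrying an ALKBH5 or an RBM33 shRNA than in cells carrying a scramble shRNA. They are 6 of the 21797 genes with deposited RNA levels, and all 6 are among the 18227 genes tested, those averaging at least 1 CPM (read counts scaled to a common library size). The genes were picked by name after they were seen to rise in these comparisons of shRNA with scramble. Their differences there are therefore given as a description, without a test.

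UM-SCC-1 is a cell line that was grown from a squamous carcinoma of the head and neck. ALKBH5 takes the methyl mark N6-methyladenosine (m6A) off RNA, and RBM33 is a protein that binds RNA. The ALKBH5 set holds 3 libraries of the ALKBH5 scramble, 2 of ALKBH5 shRNA-1 and 2 of ALKBH5 shRNA-2, and the RBM33 set holds 3 of the RBM33 scramble, 2 of RBM33 shRNA-1 and 3 of RBM33 shRNA-2. Every group, both scrambles included, was infected with a retrovirus and kept in 10 ug/mL blasticidin for 4 days, and no other genetic change is named. Each target has 2 hairpins. Whether replicates were separate cultures is not stated, and the spread that the p-values measure is that between these libraries, which may be technical.

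The 15 libraries held 4493849 to 6733017 reads in listed genes. A count of 0 allows up to 3 reads, or 0.43 to 0.6595 CPM depending on the library, for counting error only. ALKBH5 itself stood at 108.8 to 131.7 CPM under its scramble and 75.08 to 89.59 CPM under its shRNAs, a log2 difference of -0.53 (SE 0.08, limma adjusted p = 9.1e-05). RBM33 stood at 207.2 to 227.1 CPM under its scramble and at 191.4 to 214.4 CPM under the hairpins labelled RBM33 shRNA, which differs by -0.10 (SE 0.06, limma adjusted p = 0.27). It was called only with a trend along gene length removed (-0.20, adjusted p = 0.027), so directions in the RBM33 set are directions for libraries labelled RBM33 shRNA. Of 12 squamous markers, KRT5, KRT14, KRT15, KRT17, KRT6A and TP63 are not among the genes listed here, so their level is unknown, and the other 6 summed to between 23.8 and 36.5 CPM in every library. None of the 5 squamous markers tested was called by limma, edgeR or DESeq2 in either set, and 0 had an unadjusted p under 0.05 (medians -0.10 and -0.16). With RBM33 shRNA-1 replicate 2 left out, 1 of them was called lower in the RBM33 set.

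Dyneins are motors that walk along microtubules. DNAH1 and DNAH17 encode axonemal dynein heavy chains, the force-producing subunits of the inner and the outer arms that bend cilia and sperm tails. MYH3 encodes the embryonic myosin heavy chain of developing skeletal muscle, and NEB encodes nebulin, a very long protein laid along the thin filament of the muscle sarcomere. COL7A1 encodes type VII collagen, which forms the anchoring fibrils that hold the epidermis to the dermis and is a normal product of keratinocytes. CCDC168 is named for a predicted coiled coil.

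A RefSeq promoter table (GRCh38.p14, 250 bases before to 50 bases after the start) matched 3 of the 6 genes by symbol, and the 3 sequences are shown as the letters around the starts of genes chosen for their shared rise, which supports nothing about their promoters. The stretches are chr3:52316069-52316368 on the plus strand for DNAH1, chr3:48595280-48595579 on the minus strand for COL7A1 and chr2:151734427-151734726 on the minus strand for NEB. Capitals mark each match to one of the 6 motifs named after the sequences.
DNAH1: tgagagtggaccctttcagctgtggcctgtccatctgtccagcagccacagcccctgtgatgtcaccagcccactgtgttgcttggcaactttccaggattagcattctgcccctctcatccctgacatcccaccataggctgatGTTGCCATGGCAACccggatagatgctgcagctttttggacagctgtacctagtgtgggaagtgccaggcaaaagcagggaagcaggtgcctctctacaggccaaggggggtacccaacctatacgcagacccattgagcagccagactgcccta
COL7A1: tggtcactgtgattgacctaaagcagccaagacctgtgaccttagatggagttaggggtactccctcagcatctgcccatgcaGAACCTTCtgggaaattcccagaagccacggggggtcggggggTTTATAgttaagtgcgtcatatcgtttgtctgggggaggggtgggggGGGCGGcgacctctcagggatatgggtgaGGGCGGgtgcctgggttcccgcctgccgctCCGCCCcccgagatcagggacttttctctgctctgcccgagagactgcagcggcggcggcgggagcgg
NEB: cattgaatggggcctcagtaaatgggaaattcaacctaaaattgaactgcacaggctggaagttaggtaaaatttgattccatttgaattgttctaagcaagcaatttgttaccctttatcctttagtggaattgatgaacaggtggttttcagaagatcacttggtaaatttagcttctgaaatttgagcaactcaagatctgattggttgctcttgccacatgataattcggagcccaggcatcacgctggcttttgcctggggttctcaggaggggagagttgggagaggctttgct

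Each motif was searched on both strands. The letters GTTGCCATG, part of the X-box bound by RFX factors of ciliary genes, were added to the search after the DNAH1 sequence had been read. They matched DNAH1 on both strands, in overlapping matches at -105 and -100 from the start site, and 0.846% of all 35116 promoters hold such a match. A heat shock element, searched as GAANNTTC, occurs 1 time in the COL7A1 window, at -167, and in 6.77% of all promoters. The COL7A1 window also holds 3 GC boxes, searched as GGGCGG, between -77 and -18, where 45% of all promoters hold at least 1. The letters TATAAA, searched as a TATA box, lie at -124 of COL7A1 on the strand opposite to the gene. They occur on either strand in 11.5% of all promoters. Neither the AP-1 site (searched as TGANTCA, in 7.71% of promoters) nor the TEAD site, whose letters were GGAATG (in 14% of promoters), occurs in any of the 3 windows, and the NEB window holds no match at all. A match is a description of letters only. In base composition the windows ranged from 42.3% G and C with 2 CpG in NEB, through 56.3% with 2 CpG in DNAH1, to 62.3% with 17 CpG in COL7A1, beside medians of 58.7% and 14 CpG over all promoters.

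DNAH17 (ENSG00000187775, chr17:78423697-78577396, minus strand, hg38, annotated length 16110 bases) had the highest CPM and the largest rise of the 6. Under the ALKBH5 scramble its RNA read 13.4, 14.4 and 20.5 CPM, under ALKBH5 shRNA-1 102.2 and 88.2 CPM, and under ALKBH5 shRNA-2 81.6 and 104.4 CPM. Under the RBM33 scramble it read 15.4, 16.7 and 16.2 CPM, against 90.2 and 91.3 CPM for RBM33 shRNA-1 and 95.0, 79.3 and 99.5 CPM for RBM33 shRNA-2. The lowest shRNA library, RBM33 shRNA-2 replicate 2, lay far above the highest scramble library, ALKBH5 scramble replicate 3. The difference in log2(CPM + 1) was 2.49 (SE 0.13) in the ALKBH5 set and 2.43 (SE 0.12) in the RBM33 set, and the shRNA means were 5.84 and 5.66 times the scramble means. This log2 scale understates changes of low values, and in these bulk samples more cells with a transcript and more RNA per cell cannot be told apart.

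DNAH1 (ENSG00000114841, chr3:52316319-52400491, plus strand, 13872 bases), the inner-arm heavy chain, read 6.51, 6.15 and 5.84 CPM under the ALKBH5 scramble. The shRNA libraries read 28.8 and 21.9 CPM (ALKBH5 shRNA-1) and 21.8 and 27.9 CPM (ALKBH5 shRNA-2). Under the RBM33 scramble DNAH1 read 5.17, 8.73 and 5.79 CPM, against 27.3 and 31.7 CPM for RBM33 shRNA-1 and 23.7, 20.3 and 28.5 CPM for RBM33 shRNA-2. The shRNA and scramble libraries did not overlap, while the scramble ranges of the ALKBH5 and RBM33 sets did. The log2 differences were 1.85 (SE 0.18) and 1.89 (SE 0.17), and the ratios of means 4.07 and 4.09.

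MYH3 (ENSG00000109063, chr17:10628526-10657309, minus strand, 6684 bases), the embryonic myosin gene, read 9.42, 5.07 and 6.03 CPM under the ALKBH5 scramble. Its shRNA libraries read 24.8 and 16.6 CPM (ALKBH5 shRNA-1) and 22.9 and 24.3 CPM (ALKBH5 shRNA-2). Under the RBM33 scramble MYH3 read 5.50, 4.53 and 6.98 CPM, against 17.9 and 25.2 CPM for RBM33 shRNA-1 and 21.3, 20.5 and 22.9 CPM for RBM33 shRNA-2. The lowest shRNA library, ALKBH5 shRNA-1 replicate 2, was above the highest scramble library, ALKBH5 scramble replicate 1. The log2 differences were 1.58 (SE 0.20) and 1.76 (SE 0.19), and the ratios of means 3.2 and 3.8.

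NEB (ENSG00000183091, chr2:151485336-151734487, minus strand, 30567 bases), the nebulin gene and the longest of the 6, read 8.40, 11.5 and 10.7 CPM under the ALKBH5 scramble. Its shRNA libraries read 23.7 and 33.9 CPM (ALKBH5 shRNA-1) and 24.3 and 30.8 CPM (ALKBH5 shRNA-2). Under the RBM33 scramble NEB read 5.66, 8.89 and 6.13 CPM, against 27.3 and 31.9 CPM for RBM33 shRNA-1 and 26.2, 24.99 and 26.0 CPM for RBM33 shRNA-2. The shRNA ranges of both sets overlapped, and 2 of the 3 RBM33 scramble libraries lay below every ALKBH5 scramble library. The log2 differences were 1.37 (SE 0.17) and 1.88 (SE 0.16), and the ratios of means 2.76 and 4.01.

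COL7A1 (ENSG00000114270, chr3:48564073-48595267, minus strand, 11071 bases), the type VII collagen gene, read 3.26, 4.00 and 7.35 CPM under the ALKBH5 scramble. Its shRNA libraries read 15.5 and 13.1 CPM (ALKBH5 shRNA-1) and 11.7 and 18.9 CPM (ALKBH5 shRNA-2). Under the RBM33 scramble COL7A1 read 5.66, 5.01 and 2.04 CPM, against 11.8 and 11.1 CPM for RBM33 shRNA-1 and 10.3, 13.2 and 10.4 CPM for RBM33 shRNA-2. ALKBH5 scramble replicate 3 was the highest scramble library and RBM33 shRNA-2 replicate 1 the lowest shRNA library, and they did not cross. The log2 differences were 1.47 (SE 0.26) and 1.32 (SE 0.25), and the ratios of means 3.04 and 2.69.

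CCDC168 (ENSG00000175820, chr13:102729367-102759072, minus strand, 21470 bases) had the lowest CPM, at 3.26, 2.92 and 2.83 under the ALKBH5 scramble. Its shRNA libraries read 6.45 and 7.47 CPM (ALKBH5 shRNA-1) and 9.74 and 5.78 CPM (ALKBH5 shRNA-2). Under the RBM33 scramble CCDC168 read 2.26, 1.94 and 1.02 CPM, against 8.01 and 7.26 CPM for RBM33 shRNA-1 and 6.59, 12.4 and 7.62 CPM for RBM33 shRNA-2. The lowest of these values, RBM33 scramble replicate 3, rested on 6 reads and the highest, RBM33 shRNA-2 replicate 2, on 58 reads. The log2 differences were 1.04 (SE 0.25) and 1.76 (SE 0.24), and the ratios of means 2.45 and 4.74. In the RBM33 set the log2 difference of CCDC168 was 2.22 by edgeR, 2.24 by DESeq2 and 1.45 with a pseudocount of 2 CPM.

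**Figure D1:**
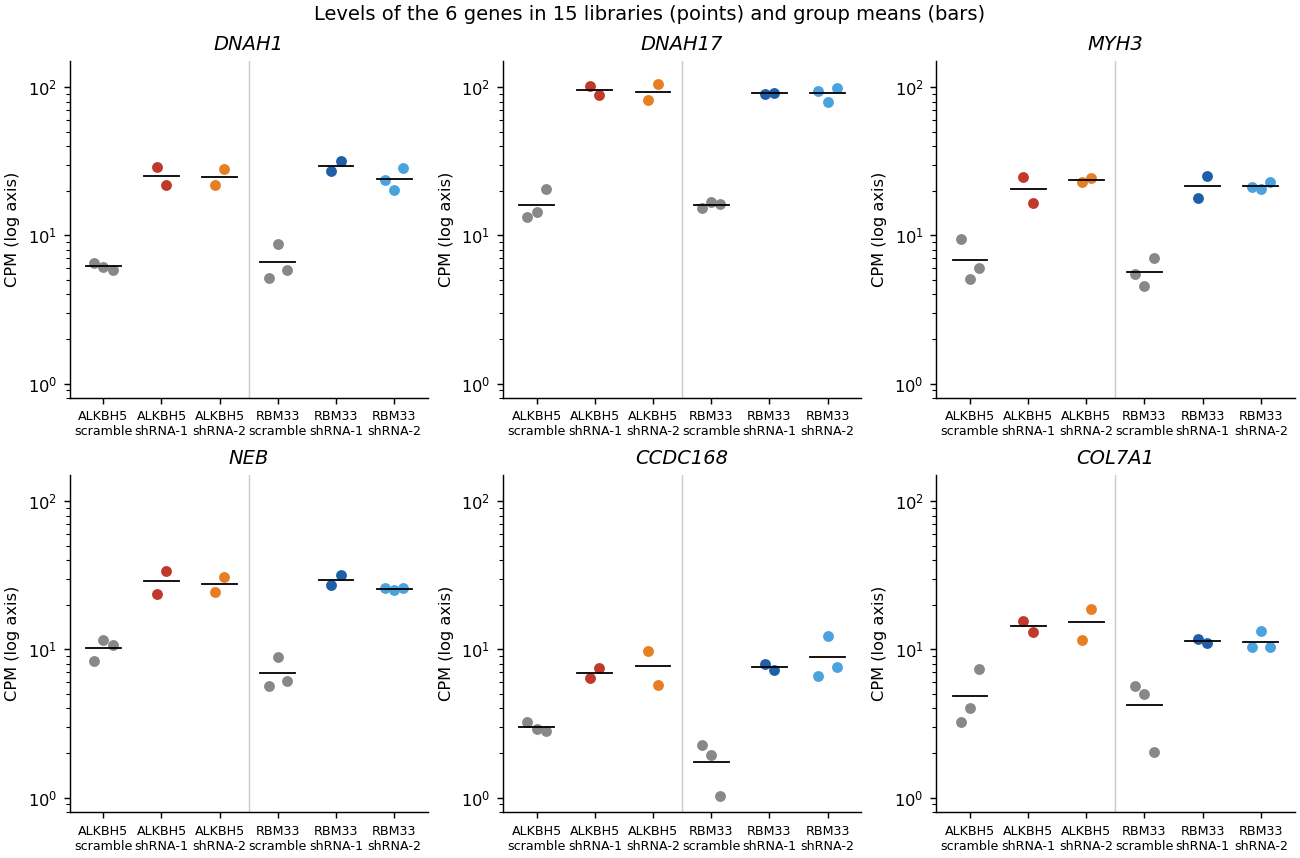
Each panel plots 1 gene in CPM on a log axis for the 15 libraries (points) by group, with the group mean as a bar. In every panel the shRNA libraries sit above the scramble libraries, from DNAH17 at 79.3 to 104.4 CPM under an shRNA down to CCDC168 at 5.78 to 12.4 CPM.

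All 6 genes had every shRNA library above every scramble library in both sets, as did 4.22% of the tested genes (12.3% in the ALKBH5 set and 10.8% in the RBM33 set). The choice of genes used these contrasts, so nothing is read from that count. With any 1 library left out and under each other setting tried, all 288 differences of the 6 genes stayed above 0, between 0.88 and 2.67. Without overlap between shRNA and scramble libraries, leaving out a library could not turn a sign. These are also the differences that chose the genes, so nothing is read from their signs either. In the authors' deposited tables, the log2 fold changes of the 6 genes over the 4 shRNAs ran from 1.2 (CCDC168, ALKBH5 shRNA-1) to 2.57 (DNAH17, ALKBH5 shRNA-1) by edgeR. The authors' deposited DESeq2 tables gave 1.16 (CCDC168, ALKBH5 shRNA-2) to 2.42 (DNAH17, RBM33 shRNA-2). For NEB under RBM33 shRNA-1 and RBM33 shRNA-2, the authors' DESeq2 gave 1.49 and 1.5 and their edgeR 2.1 and 1.89. For NEB under ALKBH5 shRNA-1 and ALKBH5 shRNA-2, it gave 1.3 and 1.35 and their edgeR 1.48 and 1.43.

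Levels can be set side by side between genes only per length, here as CPM per kb of annotated gene. Under the ALKBH5 scramble the order of mean levels per kb was MYH3 (1.02), DNAH17 (1.00), DNAH1 (0.445), COL7A1 (0.44), NEB (0.334) and CCDC168 (0.14). MYH3 and DNAH17 overlapped in range, as did DNAH1 with COL7A1 and COL7A1 with NEB, while CCDC168 lay below all others. With the ALKBH5 shRNAs the mean levels per kb were DNAH17 5.84, MYH3 3.31, DNAH1 1.81, COL7A1 1.34, NEB 0.921 and CCDC168 0.343. DNAH17 then lay above every MYH3 value, MYH3 lay above every DNAH1 value, and the ranges of DNAH1 with COL7A1 and of COL7A1 with NEB overlapped. In libraries labelled RBM33 shRNA the order was the same, at DNAH17 5.65, MYH3 3.23, DNAH1 1.9, COL7A1 1.03, NEB 0.892 and CCDC168 0.39 CPM per kb.

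Whether the rises differed in size between the ALKBH5 and the RBM33 set was tested as an interaction over all genes. It is the difference between the contrasts that chose the genes, and choosing genes that rose in both sets can make it smaller. The count of calls among the 6 genes is therefore a description. By limma 0 of the 6 genes were called at an adjusted p under 0.05, beside 2.69% of all tested genes. The count was also 0 by edgeR and 0 by DESeq2, but DESeq2 gave no adjusted p for CCDC168 and COL7A1. By limma 1 gene had an unadjusted p under 0.05. That gene was NEB, whose ALKBH5 effect minus its RBM33 effect was -0.50 (95% interval -0.99 to -0.02, limma adjusted p = 0.301), and -0.26 with the length trend removed (adjusted p = 0.71). CCDC168 had the lowest difference, -0.71 (95% interval -1.44 to 0.01, limma adjusted p = 0.339). The intervals of the other 4 genes held 0 well inside them: -0.3 to 0.42 for DNAH17, -0.55 to 0.47 for DNAH1, -0.75 to 0.38 for MYH3 and -0.6 to 0.91 for COL7A1.

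The scramble groups of both sets were compared with each other in the same way. These libraries also entered the contrasts that chose the genes, so nothing is read from this count either. By limma 0 of the 6 genes were called, beside 2.48% of all tested genes, and edgeR and DESeq2 also called 0. Here too DESeq2 gave no adjusted p for CCDC168 and COL7A1. Unadjusted p-values were under 0.05 for 2 genes. NEB was 0.52 higher in the ALKBH5 scramble on the log2 scale (95% interval 0.15 to 0.89, limma adjusted p = 0.15), or 0.33 with the length trend removed, and CCDC168 was 0.57 higher (0.01 to 1.13, limma adjusted p = 0.335). The other 4 genes differed by -0.05 to 0.21. The interaction and this comparison share the scramble libraries, so their values for NEB and CCDC168 are not separate observations.

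The hairpins to 1 target were compared to see how alike the rises were between them. Among the 6 genes, ALKBH5 shRNA-2 minus ALKBH5 shRNA-1 ran from -0.05 for NEB to 0.21 for MYH3, with the widest interval for COL7A1 (-0.66 to 0.77) and the narrowest for DNAH17 (-0.38 to 0.3). RBM33 shRNA-2 minus RBM33 shRNA-1 ran from -0.28 for DNAH1 (95% interval -0.72 to 0.15) to 0.15 for CCDC168 (-0.47 to 0.77). By limma, edgeR and DESeq2 alike 0 of the 6 genes were called in either comparison, and 0 had an unadjusted p under 0.05. Over all genes limma called 0 (0% of those tested) in each, with 943 and 994 genes at an unadjusted p under 0.05. edgeR also called 0 in each, and DESeq2 called 1 gene in the ALKBH5 set and 0 in the RBM33 set.

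**Figure D2:**
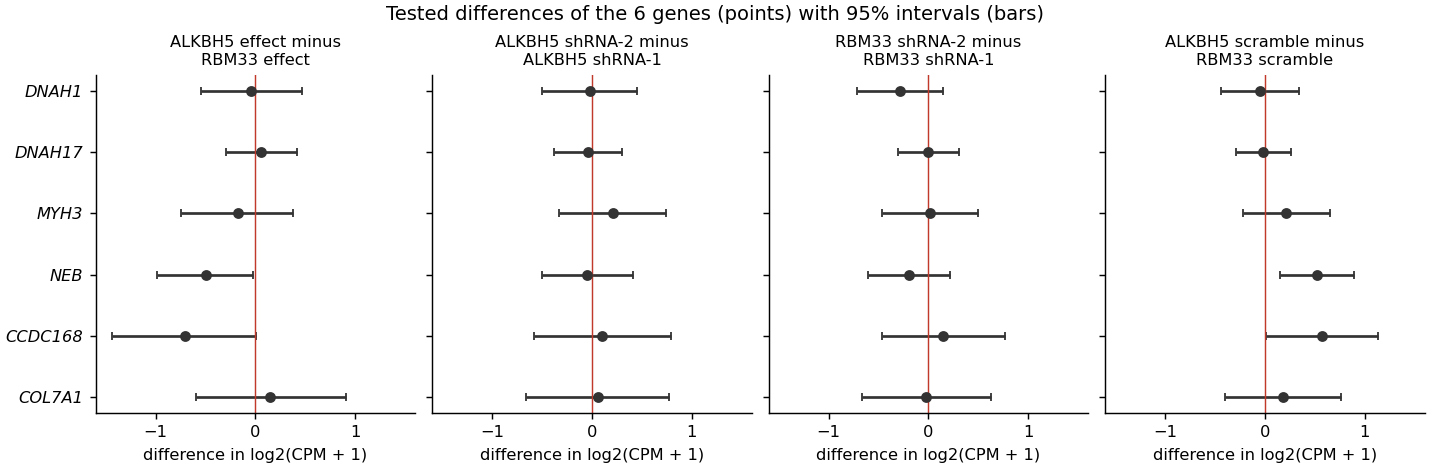
Points are differences in log2(CPM + 1) of the 6 genes in the 4 tested comparisons, and bars are 95% intervals from limma. The intervals cross 0 except for NEB in the interaction (-0.99 to -0.02) and NEB and CCDC168 between the scramble groups (0.15 to 0.89 and 0.01 to 1.13), and no adjusted p was under 0.05.

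Related genes were read in lists, with the 6 genes left out, against shares of 7.93% rising and 7.18% falling among all tested genes in the ALKBH5 set, 8.5% and 9.25% in the RBM33 set, and all-gene medians of 0.01 and -0.01. Counts are limma's, and wherever limma called 0 genes of a list, edgeR and DESeq2 called 0 as well. DESeq2 gave no adjusted p for some listed genes, among them most of the tested skeletal muscle markers in the ALKBH5 set.

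The other axonemal dynein heavy chains, the direct relatives of DNAH1 and DNAH17, mostly did not pass the test. Of the 11 others, all tested, 2 rose in the ALKBH5 set (median 0.21) and 1 in libraries labelled RBM33 shRNA (median 0.35), and 0 fell in either (0 at an unadjusted p under 0.05). At an unadjusted limma p under 0.05, 3 were higher in the ALKBH5 set and 4 in the RBM33 set. Over the 5 of them that average at least 5 CPM the called rises were 1 and 0. DNAH12, an inner-arm heavy chain, read 1.03 to 2.64 CPM under the ALKBH5 scramble and 3.58 to 7.64 CPM under its shRNAs, a rise of 1.26 (SE 0.32, limma adjusted p = 0.01). In libraries labelled RBM33 shRNA it rose by 1.13 (SE 0.31, limma adjusted p = 0.014). The first of these calls ended without ALKBH5 scramble replicate 1 (adjusted p = 0.059), ALKBH5 scramble replicate 2 (0.05) or ALKBH5 shRNA-2 replicate 1 (0.052), and the other without RBM33 scramble replicate 3 (0.12). DNAH14, the most abundant of them at 181 to 236 CPM, rose by 0.22 in the ALKBH5 set (SE 0.07, limma adjusted p = 0.027), a call that ended without ALKBH5 scramble replicates 2 or 3 or the first replicate of either ALKBH5 shRNA (adjusted p up to 0.096). With RBM33 shRNA-1 replicate 2 left out, 2 heavy chains rose in the RBM33 set. The outer-arm chains DNAH5 (0.08 and 0.72) and DNAH9 (0.50 and 0.68) and the inner-arm chain DNAH10 (0.59 and 0.64) were not called.

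The myosin relatives of MYH3 gave few values. Of the 10 other muscle myosin heavy chains, 8 averaged under 1 CPM and were not tested, among them the adult fast chains MYH1, MYH2 and MYH4 (0.887, 0.628 and 0.971 CPM) and the perinatal chain MYH8 (0.505 CPM). The other 2, MYH7B and MYH15, differed by 0.64 and 0.40 in the ALKBH5 set and by 0.37 and 0.09 in the RBM33 set (list medians 0.52 and 0.23), and 0 were called (0 at an unadjusted p under 0.05). Of the 4 smooth muscle and nonmuscle chains, 0 were called in the ALKBH5 set (median -0.09, 1 higher at an unadjusted p under 0.05) and 1 rose in the RBM33 set (median 0.06). It was MYH9, a nonmuscle chain, which rose by 0.29 (SE 0.07, limma adjusted p = 0.0067). Muscle myosins are close in sequence, and how the authors counted reads that match several of them is not known here, so low counts among them are uncertain.

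**Figure D3:**
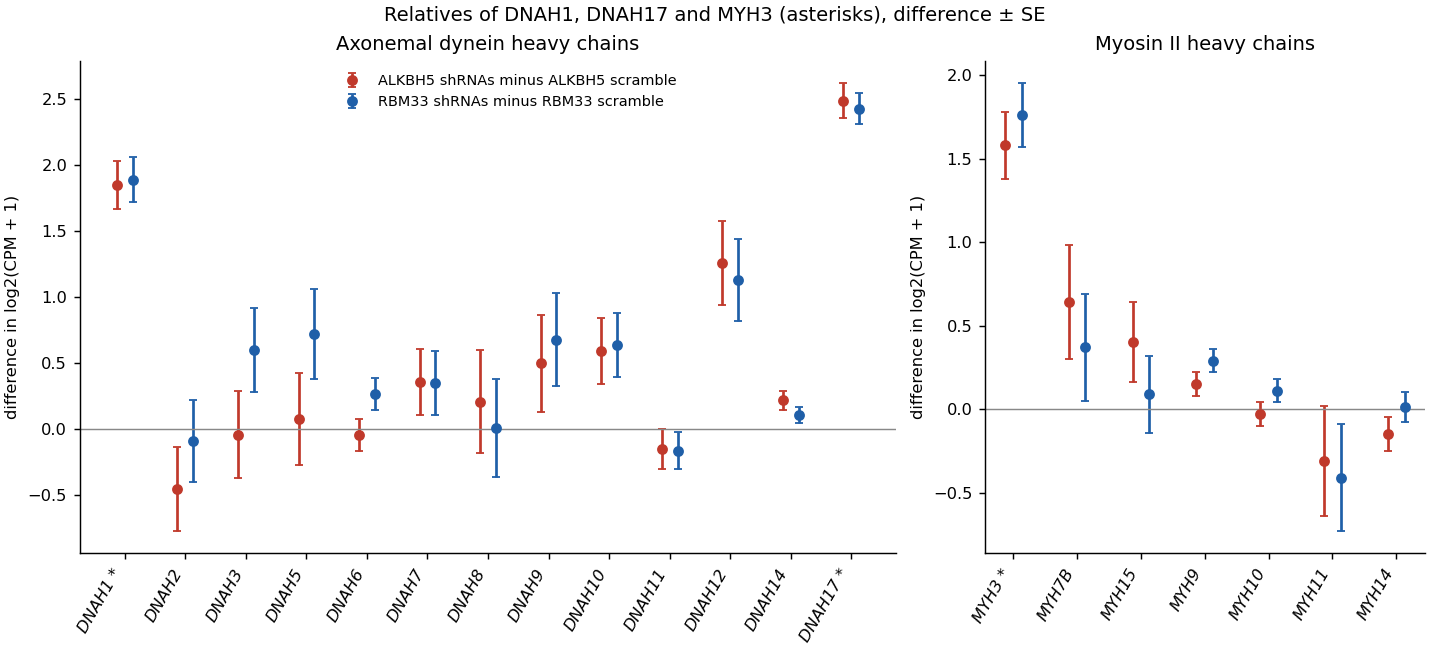
Differences in log2(CPM + 1) with SE bars for the tested axonemal dynein heavy chains (left) and myosin II heavy chains (right), red for the ALKBH5 set and blue for the RBM33 set, with asterisks on DNAH1, DNAH17 and MYH3. The highest differences beside theirs are those of DNAH12 (1.26 and 1.13) among the dyneins and MYH7B (0.64 and 0.37) among the myosins.

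Axonemal dyneins also need small subunits, docking proteins and assembly factors, of which 27 of 33 listed names were tested. In the ALKBH5 set 1 rose and 0 fell (median 0.09, with 1 lower at an unadjusted p under 0.05). In libraries labelled RBM33 shRNA 2 rose and 2 fell (median 0.08). DNAAF5, a cytoplasmic assembly factor, rose by 0.50 in the RBM33 set (SE 0.10, limma adjusted p = 0.00074) and by 0.41 in the ALKBH5 set (SE 0.10, limma adjusted p = 0.0073), where the call ended without ALKBH5 scramble replicate 3 (0.056). DNAAF2, another assembly factor, fell by 0.59 in the RBM33 set (SE 0.15, limma adjusted p = 0.0085), a call that ended without RBM33 scramble replicate 3 (0.054). The 2 falls were 0 without RBM33 scramble replicate 3 and 1 without RBM33 scramble replicates 1 or 2, either RBM33 shRNA-1 library or RBM33 shRNA-2 replicates 2 or 3. The 2 rises were 1 without RBM33 scramble replicate 1, RBM33 shRNA-1 replicate 1, RBM33 shRNA-2 replicates 1 or 2, ALKBH5 scramble replicates 1 or 3 or either ALKBH5 shRNA-1 library, and 1 gene fell in the ALKBH5 set without ALKBH5 shRNA-2 replicate 1. With the length trend removed 1 rose and 1 fell in the RBM33 set.

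Cytoplasmic dynein, the relative that carries cargo rather than bending cilia, and its partner dynactin gave 3 rises and 1 fall among 26 tested in the ALKBH5 set (median 0.04). In libraries labelled RBM33 shRNA there were 3 rises and 4 falls (median -0.05), with 2 falls without RBM33 scramble replicate 3 or either RBM33 shRNA-1 library. DYNLL1, a light chain shared with other complexes, rose by 0.97 and 0.59 (SE 0.10 in each, limma adjusted p = 7.4e-07 and 0.0002). DYNC2H1, the heavy chain of transport within cilia, fell by 0.30 in the ALKBH5 set (SE 0.06, limma adjusted p = 0.0016) and differed by 0.12 in the RBM33 set. DYNLT1, another light chain, fell by 0.43 in the RBM33 set (SE 0.09, limma adjusted p = 0.002) and differed by 0.17 in the ALKBH5 set.

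Of 30 markers of motile cilia and multiciliated cells, 17 were tested. Another 9 are not among the genes listed here, including FOXJ1, the main regulator of the multiciliated program, and their level is unknown. In the ALKBH5 set 5 rose and 1 fell (median 0.16), and in libraries labelled RBM33 shRNA 4 rose and 0 fell (median 0.24, with 0 lower at an unadjusted p under 0.05). The 5 rises were 3 among the 12 genes averaging at least 5 CPM, 2 without ALKBH5 scramble replicate 1, and 3 without ALKBH5 scramble replicates 2 or 3 or ALKBH5 shRNA-2 replicates 1 or 3. The 4 rises were 2 without RBM33 scramble replicate 3 or RBM33 shRNA-1 replicate 1, and the single fall was lost without ALKBH5 scramble replicates 1 or 2 or either ALKBH5 shRNA-1 library. CFAP44, an axonemal protein, read 9.61 to 19.9 CPM under the ALKBH5 scramble and 23.3 to 33.2 CPM under its shRNAs, and rose by 1.00 (SE 0.19, limma adjusted p = 0.001). In libraries labelled RBM33 shRNA it rose by 1.44 (SE 0.19, limma adjusted p = 6.6e-06). RSPH4A, a radial spoke head protein, rose by 1.49 (SE 0.28, limma adjusted p = 0.00069) in libraries labelled RBM33 shRNA. In the ALKBH5 set RSPH4A rose by 0.92 (SE 0.30, limma adjusted p = 0.037). That call ended in 5 of the 15 analyses that left out a library (adjusted p up to 0.14). Summed over the 21 listed markers, the level was 253 to 268 CPM under the ALKBH5 scramble and 290 to 312 CPM under its shRNAs, and 239 to 275 CPM and 286 to 315 CPM in the RBM33 set. Its part in the values of DNAH1 and DNAH17 was not tested.

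Genes of the thin filament and of the nebulin family were called in both directions. Of 28 others, 17 were tested, and 3 rose and 5 fell in the ALKBH5 set (median 0.17), while 0 rose and 2 fell in libraries labelled RBM33 shRNA (median -0.18, with 0 higher at an unadjusted p under 0.05). The 5 falls were 3 without ALKBH5 scramble replicate 3 and 2 without ALKBH5 shRNA-2 replicate 1, and 1 gene rose in the RBM33 set without RBM33 scramble replicate 1. With the length trend removed 5 rose in the ALKBH5 set. NEBL, which encodes the short relative nebulette, differed by 0.24 and -0.03, uncalled. LASP1, another nebulin family member, fell by 0.65 in the ALKBH5 set (SE 0.12, limma adjusted p = 0.00063). LIMA1, an actin-binding protein, fell by 0.43 and 0.47 (SE 0.07 in each, limma adjusted p = 0.00036 and 6.3e-05). TPM3, a tropomyosin, rose by 0.42 in the ALKBH5 set (SE 0.09, limma adjusted p = 0.002) and differed by -0.07 in the RBM33 set. LMOD1, which nucleates actin filaments, fell by 0.70 in the RBM33 set (SE 0.14, limma adjusted p = 0.00083). In the ALKBH5 set LMOD1 differed by -0.45 (SE 0.14, limma adjusted p = 0.034). That call ended without ALKBH5 scramble replicates 2 or 3, ALKBH5 shRNA-1 replicate 2 or ALKBH5 shRNA-2 replicate 1 (adjusted p up to 0.15).

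Of 26 giant and Z-disc proteins, 14 were tested, and 1 rose and 1 fell in the ALKBH5 set (median -0.04), while 1 rose and 0 fell in libraries labelled RBM33 shRNA (median 0.16, with 1 lower at an unadjusted p under 0.05). ACTN2, the sarcomeric alpha-actinin, rose by 0.59 in both sets (SE 0.14 in each, limma adjusted p = 0.0061 and 0.0033). PALLD, which encodes palladin, fell by 0.38 in the ALKBH5 set (SE 0.09, limma adjusted p = 0.0037), and 2 genes rose there without ALKBH5 shRNA-1 replicate 2. A fit of only the groups compared gave 2 rises in each set, and 1 fell in the RBM33 set with the length trend removed. TTN, the titin gene, differed by 0.65 and 0.35, uncalled.

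Of 20 markers of skeletal muscle cells, 13 are not among the genes listed here and were not analysed, MYOD1, MYF5, MYF6, MYOG and CKM included, and their level is unknown. The 7 listed ones summed to 4.11 to 7.68 CPM under the ALKBH5 scramble and 8.03 to 14.4 CPM under its shRNAs, and to 5.79 to 10.5 and 5.47 to 9.61 CPM in the RBM33 set. Their part in the values of MYH3 and NEB was not tested. Of the 4 tested, 1 rose and 0 fell in the ALKBH5 set (median 0.46), and 0 were called in the RBM33 set (median -0.04), with 0 lower in the first and 0 in either direction in the second at an unadjusted p under 0.05. The 1 gene was ACTA1, skeletal actin, at 0 to 0.343 CPM under the ALKBH5 scramble, which is below the floor of 3 reads, and 0.771 to 2.92 CPM under its shRNAs. Its call (limma adjusted p = 0.018) ended without ALKBH5 scramble replicates 2 or 3, ALKBH5 shRNA-1 replicate 2 or ALKBH5 shRNA-2 replicate 1 (adjusted p up to 0.085), and 1 marker rose in the RBM33 set without RBM33 scramble replicate 1. The rise of ACTA1 was 1.31 (SE 0.37), but 0.84 with a pseudocount of 2 CPM and 3.75 by edgeR. In the ALKBH5 set DESeq2 gave an adjusted p for only 1 of the 4 markers and called 0, and 0 of the 4 average at least 5 CPM.

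Among the other collagen genes more fell than rose. Of 16 tested other chains, 0 rose and 3 fell in the ALKBH5 set (median -0.31, with 0 higher at an unadjusted p under 0.05), and 1 rose and 5 fell in libraries labelled RBM33 shRNA (median -0.33). The 5 falls were 2 without RBM33 scramble replicate 2 and 3 without RBM33 scramble replicate 1, either RBM33 shRNA-1 library or RBM33 shRNA-2 replicate 3. The single rise, of COL5A2 (0.77, SE 0.18, limma adjusted p = 0.0048), ended without RBM33 scramble replicate 1 (0.053). COL12A1, a chain on the surface of fibrils, read 26.9 to 30 CPM under the ALKBH5 scramble and 13.4 to 15.6 CPM under its shRNAs, and fell by 0.91 (SE 0.14, limma adjusted p = 0.0001). COL12A1 also fell in the RBM33 set, by 0.63 (SE 0.14, limma adjusted p = 0.0019). COL6A1, a type VI chain, fell by 0.59 and 0.62 (SE 0.13 and 0.12, limma adjusted p = 0.0032 and 0.0011).

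Enzymes and chaperones that process collagen gave 3 rises and 6 falls among 24 tested in the ALKBH5 set (median -0.17) and 1 rise and 6 falls in libraries labelled RBM33 shRNA (median -0.16). Leaving out ALKBH5 scramble replicate 1 left 1 of the 3 rises, and leaving out RBM33 scramble replicates 1 or 3 left 3 falls in the RBM33 set. LOX, which crosslinks collagen, fell by 1.10 and 0.92 (SE 0.14 and 0.13, limma adjusted p = 5.8e-06 and 2.3e-05). P4HA1, a prolyl hydroxylase subunit, fell by 0.33 and 0.29 (limma adjusted p = 0.004 and 0.0066), while P3H3, of a related hydroxylase family, rose by 0.49 and 0.60 (limma adjusted p = 0.0044 and 0.00045).

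Partners of type VII collagen in the anchoring fibril and the hemidesmosome gave 0 rises and 5 falls among 20 tested in the ALKBH5 set (median -0.03, with 1 higher at an unadjusted p under 0.05). In libraries labelled RBM33 shRNA they gave 3 rises and 4 falls (median -0.11). In the ALKBH5 set the falls were 3 without ALKBH5 scramble replicates 2 or 3 or ALKBH5 shRNA-1 replicate 2, and 1 gene rose without ALKBH5 shRNA-2 replicate 1. In the RBM33 set the falls were 1 without RBM33 shRNA-1 replicate 1 and 2 without any of the 3 RBM33 scramble libraries. Among the RBM33 set's rises was PLEC, the linker plectin, by 0.45 (SE 0.09, limma adjusted p = 0.0013). DST, the linker dystonin, rose by 0.43 (SE 0.06, limma adjusted p = 3.5e-05), but differed by 0.12 with the length trend removed (adjusted p = 0.21), where 1 of the 3 rises was called. CD151, a tetraspanin, fell by 0.78 in the RBM33 set (SE 0.10, limma adjusted p = 1e-05), and NID1, a basement membrane linker, fell by 0.43 in the ALKBH5 set (SE 0.06, limma adjusted p = 8e-05). In the ALKBH5 set CD151 differed by -0.33 (SE 0.11, limma adjusted p = 0.04), and in the RBM33 set NID1 differed by -0.19 (SE 0.06, limma adjusted p = 0.036). These 2 calls ended in 6 and 5 of the 15 analyses that left out a library (adjusted p up to 0.18 and 0.14).

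Fibroblast markers were read as a check on other sources of matrix RNA, and 0 of the 9 tested rose in either set under any setting tried (1 and 0 higher at an unadjusted p under 0.05). In the ALKBH5 set 1 fell (2 without ALKBH5 scramble replicate 1 or ALKBH5 shRNA-1 replicate 1, median -0.26). In the RBM33 set 4 fell (median -0.48), but 1 without RBM33 scramble replicate 2, and 2 without RBM33 scramble replicate 1, either RBM33 shRNA-1 library, RBM33 shRNA-2 replicates 2 or 3, or ALKBH5 scramble replicates 2 or 3. The collagen genes COL6A1, COL6A2 and COL3A1 stand in this list too. The markers summed to 130 to 157 CPM under the ALKBH5 scramble and 104 to 125 CPM under its shRNAs, and to 140 to 152 CPM and 92.4 to 117 CPM in the RBM33 set.

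**Figure D4:**
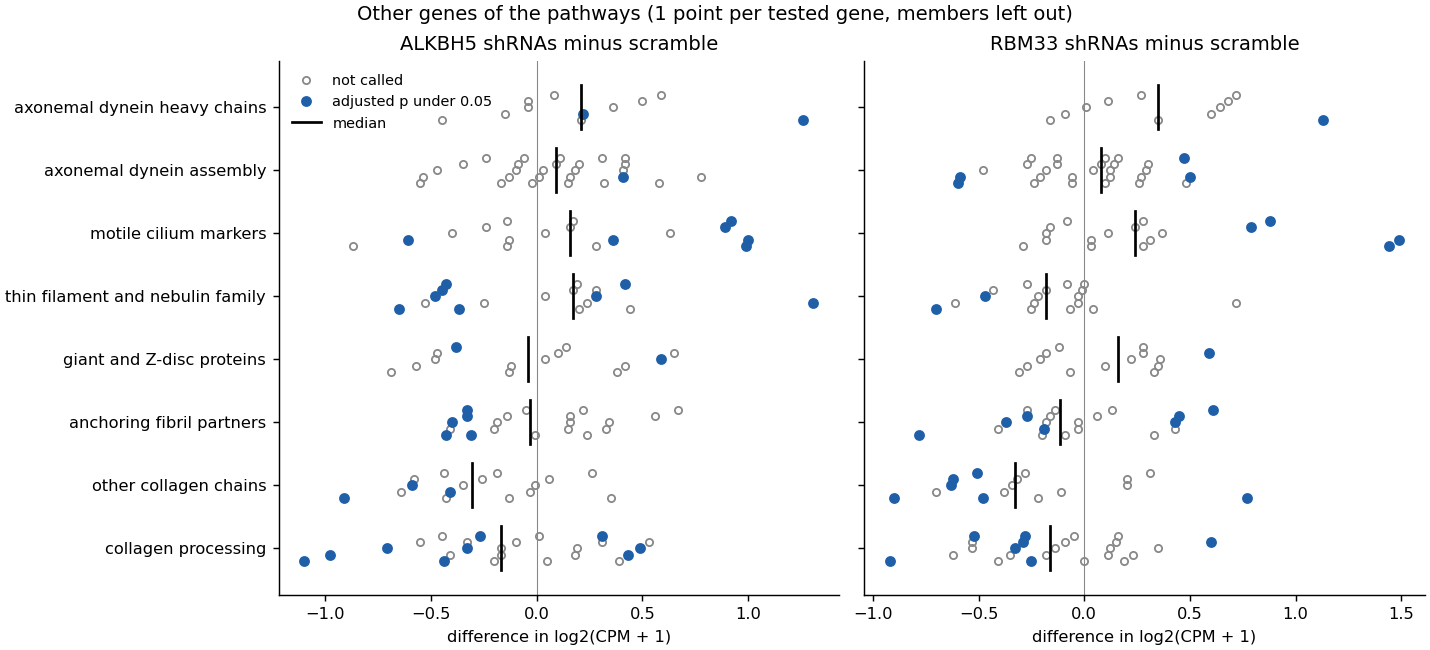
Each point is 1 tested gene of 8 of the 14 lists (those on axonemal dynein heavy chains, their small subunits and assembly factors, motile cilia, thin filaments, Z-discs, anchoring fibrils, other collagens and collagen processing), with DNAH1, DNAH17, MYH3, NEB, CCDC168 and COL7A1 left out, plotted as the difference in log2(CPM + 1) in the ALKBH5 set (left) and the RBM33 set (right). Filled points had an adjusted p under 0.05 and black lines are medians, which over these 8 lists run from -0.31 (other collagen chains) to 0.21 (axonemal dynein heavy chains) on the left and from -0.33 to 0.35 on the right.

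The 6 genes were grouped partly for their size, so their length is a description. Among the 18227 tested genes, 99.7% were shorter than NEB, 99% shorter than CCDC168, 97% shorter than DNAH17, 95.3% shorter than DNAH1, 90.8% shorter than COL7A1 and 70.9% shorter than MYH3. Genes were split into 8 bins of about equal number by length, and 5 of the 6 fell into the longest bin (9901 to 347964 bases, 2279 genes). The median difference of that bin was -0.03 in the ALKBH5 set and 0.10 in the RBM33 set, against 0.03 and -0.10 in the shortest bin. In the longest bin 8.73% of genes rose and 12.6% fell in the ALKBH5 set, while 19.7% rose and 5.35% fell in libraries labelled RBM33 shRNA. By size of the difference within their own bin, DNAH17 ranked 1 and 1 of 2279 in the ALKBH5 and RBM33 sets, DNAH1 2 and 2, NEB 4 and 3, COL7A1 3 and 12 and CCDC168 11 and 4. MYH3 ranked 1 and 1 of 2276 in its bin (5691 to 7227 bases). The genes were chosen for these same differences, so nothing is read from the ranks.

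With the length trend removed from each library, the differences of the 6 genes ran from 1.07 (CCDC168) to 2.52 (DNAH17) in the ALKBH5 set and from 1.24 (COL7A1) to 2.3 (DNAH17) in the RBM33 set. Of the 2218 other genes of at least 10000 bases, 134 (6.04%) were called higher in both sets, beside 3.2% of all tested genes. Of those, 3 were at least 2-fold higher in both sets, DNAH12, ALPK3 and PKD1L1, the last 2 named after their values were seen.

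**Figure D5:**
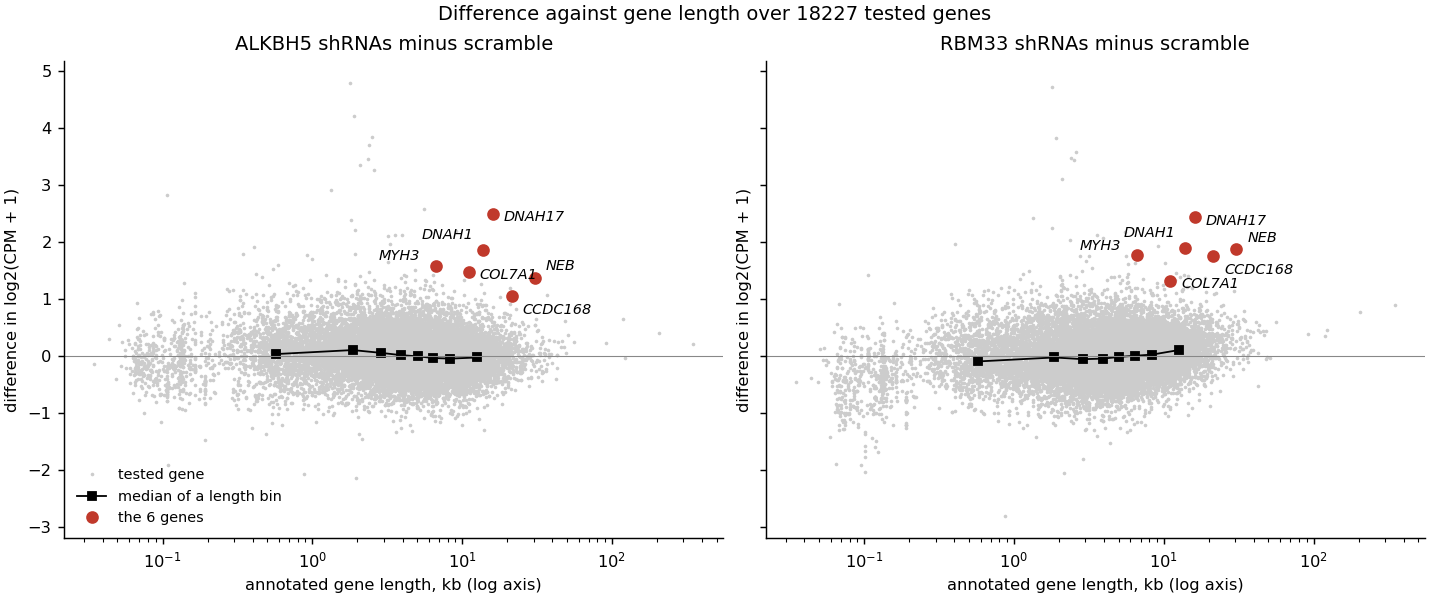
Difference in log2(CPM + 1) against annotated gene length in kb (log axis) for 18227 tested genes (grey), with bin medians (black squares) and the 6 genes (red), for the ALKBH5 set (left) and the RBM33 set (right). The bin medians stay between -0.05 and 0.1 in the left panel and between -0.1 and 0.1 in the right panel, while the 6 genes lie between 1.04 and 2.49 and between 1.32 and 2.43. The 6 genes were chosen because they rose in these comparisons.

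Genes that overlap the 6 can share reads with them, since whether the authors counted reads by strand is not known here. RIF1, a DNA repair factor on the opposite strand, overlaps NEB by 22678 bases and is abundant (mean 295 CPM). It differed by -0.22 in the ALKBH5 set and 0.21 in the RBM33 set (limma adjusted p = 0.038 and 0.04). The first call ended without ALKBH5 scramble replicates 1 or 2, ALKBH5 shRNA-1 replicate 1 or ALKBH5 shRNA-2 replicates 1 or 3 (adjusted p up to 0.14). The other ended without RBM33 scramble replicates 1 or 2, RBM33 shRNA-1 replicate 1 or RBM33 shRNA-2 replicates 2 or 3 (up to 0.27), and both ended with the length trend removed, where the RBM33 set's difference was 0.06. DNAH17 is overlapped on the opposite strand by DNAH17-AS1 (18175 bases, mean 1.45 CPM), which differed by 0.29 and 0.45, uncalled, and by PGS1 (1418 bases), which differed by 0.31 and 0.52. The call of PGS1 in the RBM33 set (limma adjusted p = 0.048) ended in 10 of the 15 analyses that left out a library (adjusted p up to 0.25), the exceptions being ALKBH5 scramble replicate 1, both ALKBH5 shRNA-1 libraries, RBM33 shRNA-1 replicate 2 and RBM33 shRNA-2 replicate 1. The pseudogene PPP2R5CP lies inside DNAH1 and averaged 0.566 CPM.

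Of the nearest listed genes beside the 6, most were not called. SCO1, a mitochondrial copper chaperone beside MYH3, rose by 0.39 and 0.37 (SE 0.08 in each, limma adjusted p = 0.0025 and 0.0023), and MYH2, on its other side, averaged under 1 CPM. CYTH1 beside DNAH17 rose by 0.45 in the ALKBH5 set (SE 0.10, limma adjusted p = 0.0021). UQCRC1, a subunit of respiratory complex III beside COL7A1, fell by 0.48 in libraries labelled RBM33 shRNA (SE 0.09, limma adjusted p = 0.00091). In the ALKBH5 set UQCRC1 differed by 0.31 (limma adjusted p = 0.036), a call that ended without ALKBH5 scramble replicates 1 or 3, either ALKBH5 shRNA-1 library or ALKBH5 shRNA-2 replicate 1 (up to 0.18). BAP1 and GLYCTK beside DNAH1, NMI beside NEB, TPP2 and TEX30 beside CCDC168 and PFKFB4 beside COL7A1 were not called.

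The authors gave m6A as differential peaks of each shRNA against its scramble, with the effect as a log. It was read here as a natural log, and the fold values below were computed from it. Peaks of the 6 genes are listed in 1 of the 4 comparisons, that of ALKBH5 shRNA-2, where DNAH17 has 2 peaks and MYH3 has 1, all with more m6A under the shRNA. In the authors' deposited table the DNAH17 peak at chr17:78427072-78428537, made of 2 blocks of 37 and 13 bases and lying 3375 bases from the 3′ end of the gene, was 3.27-fold higher. The other DNAH17 peak in the authors' deposited table, at chr17:78529554-78529603, was 5.87-fold higher. The MYH3 peak there, at chr17:10630333-10630382 and 1807 bases from the 3′ end of the gene, was 4.62-fold higher. These peaks lie in genes whose RNA was itself higher, and the part of the RNA level in the peak effects was not tested.

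The 3 effects exceed 69.6%, 91.5% and 85.3% of the 19251 peaks in that table, of which 72.5% show more m6A. The share of the 6 genes with a peak, 2 of 6, does not exceed the background: 38.1% of tested genes have one in that table, 46.2% of the 9099 genes within the range of the 6 genes' mean CPM, and 51% of the 2845 of those that are at least as long as MYH3. In the tables of ALKBH5 shRNA-1, RBM33 shRNA-1 and RBM33 shRNA-2, 0 of the 6 genes have a listed peak, where 32.6%, 7.93% and 11.5% of tested genes have one. These tables hold no absolute effect under 0.5, so smaller changes are outside them. In the authors' peak test the largest p listed was 0.00603 for ALKBH5 shRNA-1 and 0.00826 for ALKBH5 shRNA-2. For RBM33 shRNA-1 and RBM33 shRNA-2 it was 0.000681 and 0.00108. The DNAH17 peaks had p of 0.0015 and 0.0028 and the MYH3 peak 0.0049 in that test, above both RBM33 limits. Their absence for RBM33 therefore shows no difference between the sets. The authors also gave tables of m6A levels, which hold 0 of the 6 genes and a peak of 3.18%, 0.746%, 0.0988% and 0.0823% of tested genes for ALKBH5 shRNA-1, ALKBH5 shRNA-2, RBM33 shRNA-1 and RBM33 shRNA-2. Which exon or transcript region the peaks lie in is not analysed here.

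Across the 15 libraries the 6 genes followed each other closely, with Pearson's r of log2(CPM + 1) between 0.82 (MYH3 and COL7A1) and 0.98 (DNAH1 and DNAH17). These points share the split into scramble and shRNA libraries that chose the genes. Within the 6 scramble libraries the same r ran from -0.49 (MYH3 and COL7A1) to 0.62 (NEB and CCDC168). Within the 9 shRNA libraries it ran from -0.9 (DNAH17 and CCDC168) to 0.73 (DNAH1 and DNAH17). All are descriptions over few libraries that also differ in depth.

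The genes whose profile over the 15 libraries was most like the mean standardised profile of the 6 were HSPA1A (r = 0.988), KLKP1 (0.986), HSPA1B (0.986), AMH (0.985) and RBMX (0.98). HSPA1A and HSPA1B encode the inducible heat shock protein HSP70 and are near-identical copies, so how their reads divide between them is uncertain. Within the 6 scramble libraries the r of these 5 genes with the mean profile was -0.05 to 0.4, and within the 9 shRNA libraries 0.11 to 0.35. Taken gene by gene over the 15 libraries, DNAH17 was nearest to HSPA1A (r = 0.995), DNAH1 to DNAH17 (0.978) and MYH3 to AMH (0.967). NEB was nearest to PCF11 (0.968), CCDC168 to HNRNPH1 (0.947) and COL7A1 to TNRC18 (0.961). Within the 6 scramble libraries these pairs, in the order of the genes above, had r of 0.62, -0.01, 0.59, 0.73, 0.91 and 0.91, and within the 9 shRNA libraries 0.61, 0.73, 0.02, 0.76, 0.43 and 0.66. All these similar genes were picked for the highest r over the same 15 libraries, which share the split into scramble and shRNA. The r within groups are therefore not separate observations, and nothing is read from them.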

How the data were processed

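RNA-seq of UM-SCC-1 cells was analysed in 15 of 18 labelled libraries; the other 3 were not analysed here. The submitters' processing notes name cutadapt 1.18, HISAT2 2.1.0, hg38, featureCounts (Subread 1.6.4), edgeR 3.24.3 and DESeq2. The authors deposited a per-library signal in CPM, log2 fold changes from edgeR and DESeq2, m6A peak effects as a natural log with p-values, and m6A levels as a fraction. The natural log was read from the values: 4.67% to 7.41% of effects are logs of multiples of 0.5, against 0% read as log2. The m6A tables give no values per sample, so they carry no replicate error here. The design text says siRNA and the titles shRNA, and the titles were followed. Columns of other samples numbered 0.

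Limma 3.58.1 in R 4.3.3, with its trend option on log2(CPM + 1), was fitted once to 6 groups (9 residual degrees of freedom) over 18227 genes. A call was a Benjamini-Hochberg adjusted p under 0.05, and "rose" and "fell" mean such a call except for the 6 genes, which were not tested there. Whole reads were recovered from CPM (100% of values within 0.1 read), which allowed edgeR 4.0.16 (2808 and 3245 genes called in the ALKBH5 and RBM33 sets) and DESeq2 1.42.0 (2679 and 2968) beside limma's 2754 and 3235. Other alternatives were pseudocounts of 0.5 and 2 CPM, other filters, a length trend removed by loess, a replicate block, only the groups compared, and each library left out. The fit was also run on simulated counts with the same dispersion for every gene and no set or length effect. These settings differ from the data, so nothing is concluded from that run. Replicates differed by more than sampling noise (chi-square per degree of freedom 2.9 to 8.04), which does not show that they were separate cultures. Each library was counted as 1 sample.

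The 6 genes and the 14 gene lists were chosen with earlier results of these data known. Named genes are the 6, up to 4 called genes per list with the smallest adjusted p, close relatives, nearest and overlapping genes, ALKBH5, RBM33 and the genes of most similar profile.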

Additional observations from a re-analysis of the deposited data

How the results depend on the processing

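Depth limits CCDC168 and COL7A1 most, at 6 to 14 and 12 to 35 reads per RBM33 scramble library. Replicate numbers do not pair the libraries (r of same-number deviations -0.076 to 0.074 over 12 pairs). With the number as a replicate block, genes called were 2473 (ALKBH5 set), 3046 (RBM33 set), 397 (interaction) and 364 (between scrambles), and 0 of the 6 genes were called in the last 2. The block ended the RBM33 calls of RIF1 (adjusted p = 0.051) and PGS1 (0.056; edgeR 0.057, DESeq2 0.05), and left 1 rise among the axonemal small subunits and 2 falls in cytoplasmic dynein there. DESeq2 and a fit of only the groups compared each gave 2 falls among fibroblast markers in the RBM33 set, and DESeq2 gave 2 falls in cytoplasmic dynein in the ALKBH5 set. In the main analysis these counts were 2754, 3235, 491 and 452. With 1 library left out they were 1710 (without ALKBH5 scramble replicate 1) to 2858, 2062 (without RBM33 scramble replicate 2, and 2083 without RBM33 scramble replicate 1) to 3262, 266 to 579 and 241 to 509. With the length trend removed the interaction had 311 calls, the longest-bin medians were 0.0 in both sets by construction, and the interaction of DNAH1 was 0.1. DESeq2 gave a longest-bin median of 0.12 in the RBM33 set, a scramble difference of 0.01 for DNAH17 and 1 gene between the ALKBH5 hairpins, as did a fit of only those groups (1); the cause was not tested. Signs changed with 1 library left out in uncalled differences. In the interaction the ranges were DNAH1 -0.23 to 0.09, DNAH17 -0.05 to 0.24, MYH3 -0.35 to 0.04 and COL7A1 -0.06 to 0.5. Between scrambles they were DNAH1 -0.18 to 0.15, DNAH17 -0.2 to 0.1, MYH3 -0.01 to 0.38 and COL7A1 -0.17 to 0.39. A stricter adjusted p for m6A could not be tried, since the peak tables give none and the level tables hold 0 of the 6 genes.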
